A study of Rattus norvegicus with 30 samples.

Results

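The cyclins and kinases that carry a cell through the G1 phase, with their inhibitor and the ubiquitin ligase that removes it, were examined in the livers of rats that had or had not undergone common laboratory handling. The 10 genes were Ccnd1, Ccnd2, Ccnd3, Cdk4, Cdk6, Cdkn1b, Ccne1, Ccne2, Cul1 and Skp2. Every probe set that the platform annotation assigns to one of these symbols alone was taken, which gave 13 of the 31042 probe sets tested, from 9 of the 14217 genes with a probe set of their own. Ccnd1 had 3 of them, Cdkn1b and Ccne2 had 2 each, and the other 6 genes had 1 each. The only probe set of Skp2 is also assigned to a second symbol, Skp2-ps1, so Skp2 is not described.

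The rats were Sprague-Dawley females, 10 wk old. RNA of the left lobe of the liver was hybridised to 1 Affymetrix rat whole-genome array per animal, 30 in all. Of these, 10 rats were handled for 4 days and sampled at 96 h, 10 rats were handled for 1 day and sampled at 24 h, and 10 control rats were not handled and were sampled at 24 h. Handling meant weighing, placing in a restrainer, water by oral gavage and blood collection from the tail vein. The study's design table gives blood collection on day 1 for rats handled for 1 day and on day 4 for rats handled for 4 days. All rats had free access to feed. No unhandled rats were sampled at 96 h, so in the comparison of 4 days with control the handling and the later sampling cannot be told apart. In the comparison of 4 days with 1 day, the number of days and the time of sampling cannot be told apart either. The comparisons asked whether the level of a transcript in the liver differed between handled and control rats, and between the handled groups.

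Entry into the cell cycle is set in G1 by the D-type cyclins, which are induced by growth signals and bind the kinases Cdk4 and Cdk6. These complexes phosphorylate the retinoblastoma protein and so release the E2F factors, which in turn switch on the E-type cyclins. Cyclin E with its kinase then drives the start of DNA synthesis. The inhibitor p27, encoded by Cdkn1b, holds cyclin E complexes in check until a ligase built on the cullin Cul1, with Skp2 as the subunit that recognises the substrate, marks it for degradation. In the liver of an adult animal most hepatocytes are out of the cycle, and cyclin D1 is the member best known to be induced when they re-enter it, as after loss of liver tissue.

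The values are intensities scaled so that the mean over each array was 1. The median probe set had an intensity of 0.118 to 0.125 across the 30 arrays. The 6 measured hepatocyte markers summed to 251.9 to 291.4 in rats handled for 4 days, 257.0 to 281.2 in rats handled for 1 day and 252.6 to 294.8 in control rats. None of them passed the test described below, though 1 of the 6 had an unadjusted limma p under 0.05 after 4 days. Control rats 1 to 3 stood apart from all other rats in genes of fat metabolism. Scd, a fatty acid desaturase, had an intensity of 41.6 to 53.5 in these 3 rats and of 0.428 to 8.69 in the other 27. Members are therefore also given for control rats 1 to 3 apart from control rats 4 to 10, as a description. The 3′ to 5′ ratio of the Gapdh control probe sets, a measure of how far the labelled RNA reached towards the 5′ end, also differed between groups. On the log2 scale it was 0.701 to 0.963 after 4 days, 0.662 to 0.828 after 1 day and 0.550 to 0.701 in control rats.

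Ccnd3 fell after 1 day of handling and was the 1 member that passed the test. All signs here are those of the deposited intensities, handled minus control, and they run opposite to the direction that the study gives for Ccnd3 and Cul1 and also for other genes it names, such as Cd7 and Pcna. The study describes some samples of its control group as slightly different from the others across the genome. In the deposited data the rats that stood apart, control rats 1 to 3, also carry the control label. The sources used here did not settle which direction is right, and the reason for the opposite signs was not tested. The study lists Ccnd3 and Cul1 among the genes it found altered on these same arrays. The members were chosen with earlier results of these data known. Shares of members set beside those of the whole array are therefore a description and not a test of the list. Of the 13 probe sets, 1 passed the test for 1 day against control, where 28 of 31042 (0.0902%) passed over the whole array. None passed for 4 days against control, where 204 (0.657%) passed. None passed for 4 days against 1 day, where no probe set on the array did (0%). The test was limma's moderated test across all probe sets, two-sided, and a probe set was called at a Benjamini-Hochberg adjusted p under 0.1. At an unadjusted p under 0.05 there were 3 members for 1 day, 2 for 4 days and 1 for 4 days against 1 day, beside 9.33%, 11.3% and 5% of all probe sets. The median log2 difference over the 13 probe sets was -0.15 for 1 day and -0.02 for 4 days. In each, 8 of 13 were lower, while 50.8% and 49.5% of all probe sets were lower. The 3 probe sets of Ccnd1 were among the lower ones in both, and each median was the value of 1 of them, 1383075_at. Probe sets of the same gene are not separate members. Both comparisons with control share the same control rats.

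**Figure D1:**
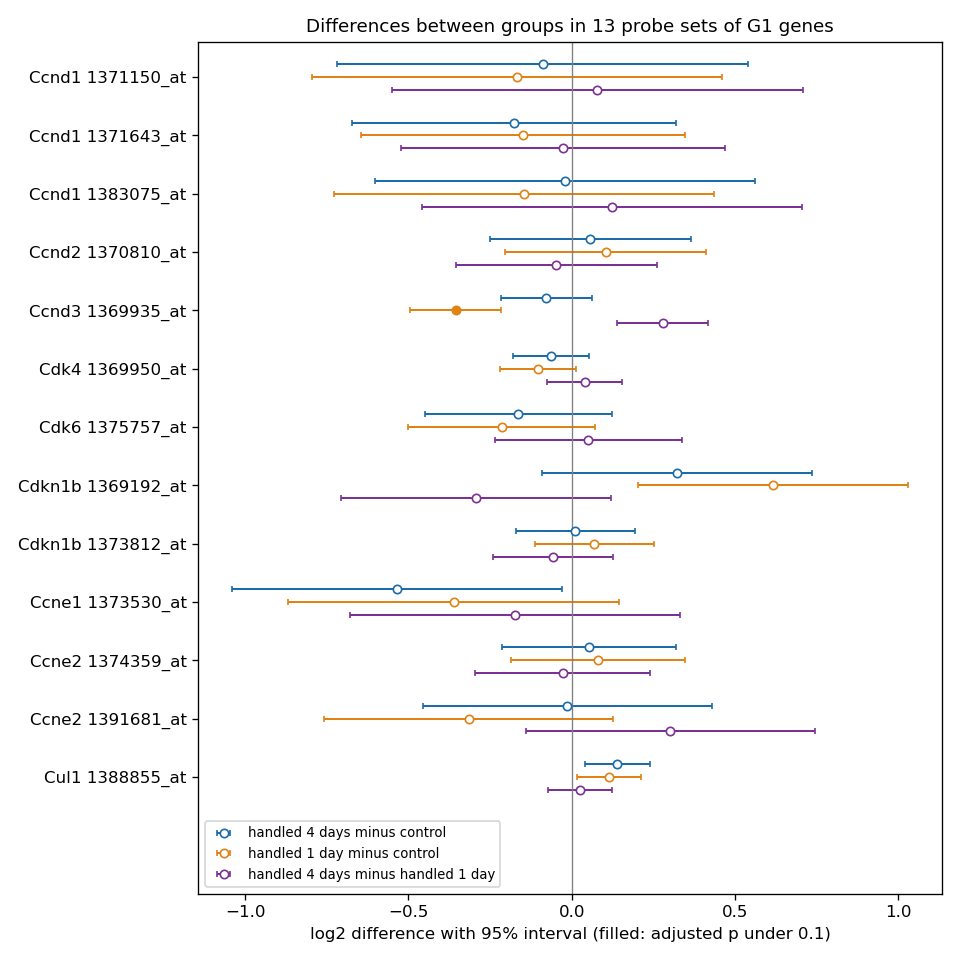
Log2 differences of the 13 probe sets (points) with 95% intervals (bars) for 4 days minus control, 1 day minus control and 4 days minus 1 day, 10 rats per group; a filled point has an adjusted p under 0.1. The only filled point is Ccnd3 for 1 day minus control, at -0.36.

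The regions upstream of the start of Ccnd3 and of Cul1 are shown because Ccnd3 had the smallest p of the members for 1 day against control and Cul1 the smallest for 4 days against control. Each is the 250 bases before the gene's start, read 5′ to 3′ on the gene's strand from RefSeq on the build GRCr8, with the searched motifs in capitals.
Ccnd3, chr9:20897876-20898125, minus strand: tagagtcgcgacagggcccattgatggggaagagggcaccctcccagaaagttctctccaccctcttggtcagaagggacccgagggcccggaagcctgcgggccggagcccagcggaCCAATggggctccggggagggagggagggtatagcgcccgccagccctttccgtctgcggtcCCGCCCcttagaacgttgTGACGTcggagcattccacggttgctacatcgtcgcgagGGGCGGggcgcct
Cul1, chr4:77551575-77551824, plus strand: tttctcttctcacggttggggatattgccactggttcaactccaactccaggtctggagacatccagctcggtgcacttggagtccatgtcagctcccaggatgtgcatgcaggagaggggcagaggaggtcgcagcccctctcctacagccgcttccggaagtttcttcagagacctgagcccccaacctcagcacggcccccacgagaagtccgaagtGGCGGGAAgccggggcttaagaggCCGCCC
In the Ccnd3 region the capitals mark 1 CCAAT box (CCAAT), 2 GC boxes (GGGCGG) and 1 core of the cyclic AMP response element (TGACGT). In the Cul1 region they mark 1 E2F form (TTCCCGCC), read on the other strand, and 1 GC box. Both strands were searched, and the E2F form can overlap a GC box. Of 33469 promoters of the same length, 34% held the CCAAT box, 30.5% the GC box, 6.95% the response element core and 1.52% this E2F form. The other E2F forms searched, TTTCGCGC and TTTGGCGC, were in 0.248% and 0.412% of promoters and in neither of these regions. The E-box CACGTG, in 5.59% of promoters, was in neither of them and stood 3 times in the region of Cdk4. Of the 9 measured genes, 5 matched an entry in this promoter set. A match is a run of letters and was not tested as a binding site.

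Ccnd3 encodes cyclin D3, the D-type cyclin best known from lymphocytes, where it supports expansion of precursor cells. Its probe set 1369935_at had a lowest, median and highest intensity of 0.294, 0.323 and 0.378 in rats handled for 4 days, 0.224, 0.274 and 0.335 in rats handled for 1 day, and 0.311, 0.337 and 0.4 in control rats. Of the rats handled for 1 day, 9 of 10 were below every control rat and 8 of 10 were below every rat handled for 4 days. Rat 9 of that group, at 0.335, was the 1 animal within the control range. Rats handled for 4 days overlapped with the controls, with 2 of 10 below all of them. The mean intensities were 0.329 ± 0.025 after 4 days, 0.272 ± 0.031 after 1 day and 0.348 ± 0.032 in control rats (SD, n = 10 each).

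The level of Ccnd3 was 1.28-fold lower after 1 day than in control rats, a log2 difference of -0.36 with a standard error of 0.07 and a 95% interval of -0.49 to -0.22. The adjusted p from limma was 0.0543, and the probe set ranked 7 of 31042 by p. After 4 days the difference from control was -0.08, with an interval of -0.22 to 0.06 and an adjusted p of 0.707. The direct difference, 4 days minus 1 day, was 0.28 with an interval of 0.14 to 0.42. It ranked 8 of 31042 by p and had an adjusted p of 0.829, so it did not pass across the array. In order of level, rats handled for 4 days and control rats were neighbours that did not differ beyond their spread, and the rats handled for 1 day were the lowest.

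Ccnd3 was still called without the 3 control rats that stood apart. Control rats 1 to 3 had 0.350, 0.330 and 0.4, and control rats 4 to 10 ranged between 0.311 and 0.4 with a median of 0.334. Without control rats 1 to 3, the difference for 1 day was -0.33 with an adjusted p of 0.0610. The call was lost without control rat 3 (adjusted p of 0.104) and without rat 1 (0.112), rat 2 (0.104), rat 4 (0.107) or rat 7 (0.103) of those handled for 1 day, and when only these groups were fitted (0.143). With the Gapdh ratio as a covariate the difference was -0.32 and the adjusted p from limma 0.366. Its size across all 38 alternatives lay between -0.39 and -0.31, and its adjusted p between 0.0153 and 0.366.

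The levels of lymphocyte markers stood as follows beside Ccnd3. The 11 measured T and NK cell markers summed to 1.26 to 1.92 after 4 days, 1.47 to 2.00 after 1 day and 1.36 to 2.19 in control rats. The 4 measured B cell markers summed to 0.382 to 0.727, 0.420 to 0.686 and 0.427 to 0.607 in the same groups. None of these markers was called after 1 day, the comparison in which Ccnd3 fell. After 4 days Cd7 and Nkg7, genes of T and NK cells, fell by 0.62 and 0.42 on the log2 scale (adjusted p of 0.0417 and 0.0902). They were the 2 called of the 11 T and NK cell markers, where 204 of 31042 probe sets (0.657%) were called over the whole array. Of the 11, 9 were lower and 2 higher after 4 days, and 3 had an unadjusted p under 0.05. Over all probe sets 49.5% were lower and 11.3% had such a p. Fewer cells of a type and less RNA per cell cannot be told apart in whole tissue, and the part of these cells in the Ccnd3 result was not tested.

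**Figure D2:**
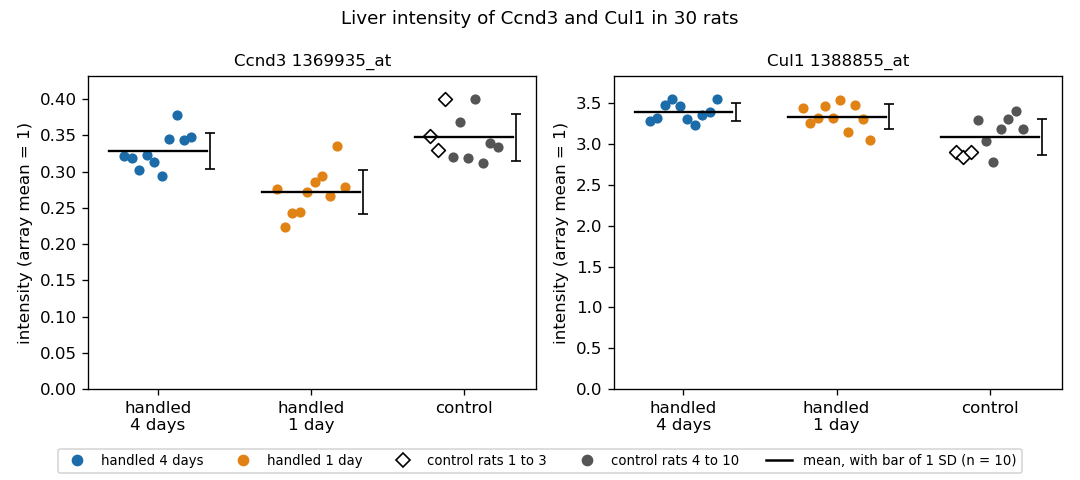
Intensity of Ccnd3 and Cul1 in each of 30 livers, on linear axes that start at 0; points are rats, open diamonds are control rats 1 to 3, lines are group means and bars are 1 SD (n = 10). For Ccnd3, 9 of 10 rats handled for 1 day lie below all control rats; for Cul1, 4 of 10 rats in each handled group lie above all control rats.

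Cul1 encodes the scaffold of the SCF ligase, which joins a substrate-binding subunit such as Skp2 to the enzyme that adds ubiquitin. Its probe set 1388855_at had a lowest, median and highest intensity of 3.24, 3.37 and 3.55 after 4 days, 3.05, 3.32 and 3.54 after 1 day, and 2.77, 3.11 and 3.41 in control rats. In each handled group 4 of 10 rats were above every control rat, and all groups overlapped. The differences from control were 0.14 after 4 days (standard error 0.05, interval 0.04 to 0.24) and 0.11 after 1 day (standard error 0.05, interval 0.02 to 0.21). The limma p-values were 0.00681 and 0.0239 before adjustment and 0.233 and 0.460 after it, so neither passed. All 10 rats handled for 4 days and 9 of 10 handled for 1 day were above the control mean.

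The differences of Cul1 were smaller without the controls that stood apart. Control rats 1 to 3 had 2.90, 2.84 and 2.91, and control rats 4 to 10 ranged between 2.77 and 3.41 with a median of 3.18. Without control rats 1 to 3 the differences were 0.10 after 4 days and 0.07 after 1 day, with adjusted p of 0.447 and 0.725. Cul1 varied least of the members among rats of 1 group, with a within-group SD of 0.08 on the log2 scale, where the median probe set had 0.37.

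Ccnd1 encodes cyclin D1, and its probe set 1371150_at had the largest spread of the 13 among animals of the same group. The 3 probe sets had within-group SDs of 0.71 (1371150_at), 0.56 (1371643_at) and 0.66 (1383075_at) on the log2 scale. Control rats 1 to 3 added to this spread. For 1371150_at the SD on the log2 scale was 0.95 in all 10 control rats and 0.39 in control rats 4 to 10. Over the 27 rats without control rats 1 to 3, deviations of the 3 probe sets from the group means ran together. Pearson's r was 0.935, 0.943 and 0.968, so separate probe sets of the gene shared the spread that remained in these 27 rats.

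Probe set 1371643_at of Ccnd1 had a lowest, median and highest intensity of 1.66, 2.47 and 3.74 after 4 days, 1.5, 2.74 and 3.81 after 1 day, and 1.04, 3.04 and 5.53 in control rats. The controls held both the highest and the lowest animals. Control rats 1, 2 and 3 had 1.21, 1.04 and 2.28, while control rats 4 to 10 ranged between 2.56 and 5.53 with a median of 3.87, so that these parts of the control group did not overlap. The same held for the other probe sets of Ccnd1, apart from control rat 3 with 1383075_at. With 1371150_at, control rats 1, 2 and 3 had 0.500, 0.455 and 1.29 and control rats 4 to 10 had 1.63 to 3.21. With 1383075_at, control rats 1, 2 and 3 had 0.995, 0.606 and 2.24 and control rats 4 to 10 had 2.13 to 4.16.

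Against all 10 controls, none of the Ccnd1 probe sets passed the test. The differences after 4 days were -0.09 (1371150_at), -0.18 (1371643_at) and -0.02 (1383075_at), and those after 1 day were -0.17, -0.15 and -0.15, with limma adjusted p of 0.837 to 0.988. The 95% intervals were wide and reached, for 1371643_at, from -0.67 to 0.32 after 4 days and from -0.65 to 0.35 after 1 day. Leaving out control rats 1 to 3 changed the size of these values. The differences were then -0.59, -0.59 and -0.43 after 4 days and -0.67, -0.56 and -0.55 after 1 day, in the same order of probe sets. Adjusted p was 0.189 to 0.533 after 4 days and 0.32 to 0.516 after 1 day, so none passed in that setting either. With 1371643_at, 6 of 10 rats handled for 4 days and 4 of 10 handled for 1 day were below every one of control rats 4 to 10.

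**Figure D3:**
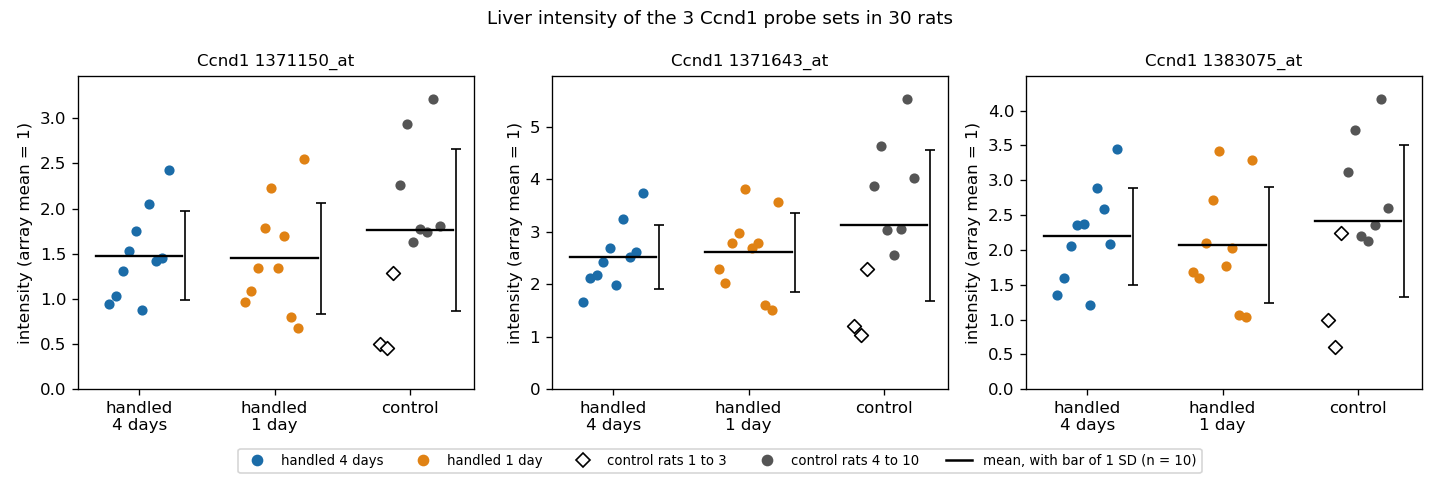
Intensity of the 3 Ccnd1 probe sets in each of 30 livers, on linear axes that start at 0; points are rats, open diamonds are control rats 1 to 3, lines are group means and bars are 1 SD (n = 10). Control rats 1 to 3 lie below control rats 4 to 10 with 1371150_at and 1371643_at, and handled rats overlap with both.

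Ccnd2 encodes cyclin D2, the remaining D-type cyclin. Its probe set 1370810_at had a lowest, median and highest intensity of 0.249, 0.390 and 0.518 after 4 days, 0.229, 0.378 and 0.577 after 1 day, and 0.276, 0.341 and 0.500 in control rats. The groups overlapped over most of their range. The differences from control were 0.06 after 4 days (interval -0.25 to 0.36) and 0.10 after 1 day (interval -0.20 to 0.41), with limma adjusted p of 0.929 and 0.870. Across the 27 rats without control rats 1 to 3, deviations of Ccnd2 correlated with those of the Ccnd1 probe sets at r of 0.408, 0.4 and 0.482, and those of Ccnd3 with either gene at -0.01 to 0.07.

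Cdk4 and Cdk6 encode the kinases that the D-type cyclins activate. Cdk4 (1369950_at) had a lowest, median and highest intensity of 1.21, 1.35 and 1.44 after 4 days, 1.03, 1.34 and 1.42 after 1 day, and 1.28, 1.4 and 1.51 in control rats. Most handled rats lay inside the control range, with 2 of 10 after 4 days and 3 of 10 after 1 day below it. The differences were -0.06 after 4 days (interval -0.18 to 0.05) and -0.10 after 1 day (interval -0.22 to 0.01), with limma adjusted p of 0.712 and 0.594. Rat 1 of those handled for 1 day was the lowest of all 30, at 1.03.

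Cdk6 (1375757_at) was dim, and its mean lay at percentile 43.7 of all probe sets. Its intensity was 0.0581, 0.0833 and 0.153 (lowest, median and highest) after 4 days, 0.0665, 0.0889 and 0.102 after 1 day, and 0.0872, 0.0997 and 0.110 in control rats. After 4 days 5 of 10 rats were below and 2 of 10 were above every control rat, so the spread was wider than in the controls. The SD on the log2 scale was 0.49 after 4 days, 0.22 after 1 day and 0.11 in control rats (n = 10 each). The differences of the means were -0.16 and -0.21, with limma adjusted p of 0.698 and 0.666 for 4 days and 1 day. No detection calls were used, so whether dim probe sets were above background is not known.

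Cdkn1b encodes p27, which inhibits the cyclin E complexes, and its probe sets differed from each other. The dim probe set 1369192_at, with a mean at percentile 37.2, had a lowest, median and highest intensity of 0.0473, 0.0702 and 0.1 after 4 days, 0.0673, 0.0796 and 0.115 after 1 day, and 0.0290, 0.0528 and 0.119 in control rats. All 10 rats handled for 1 day were above the control mean, yet none was above the highest control rat. The differences were 0.32 after 4 days (interval -0.09 to 0.74) and 0.62 after 1 day (interval 0.20 to 1.03). The limma p for 1 day was 0.00495 before adjustment and 0.312 after it, and for 4 days the adjusted p was 0.572.

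Of control rats 1, 2 and 3, the same probe set of Cdkn1b gave 0.0438, 0.0350 and 0.0467, all below the lowest handled rat. Control rats 8 and 10, at 0.0348 and 0.029, were lower than all 3 of them. Without control rats 1 to 3 the differences were 0.14 after 4 days and 0.43 after 1 day, with adjusted p of 0.866 and 0.608. The bright probe set 1373812_at had 1.77, 2.14 and 2.68 after 4 days, 1.97, 2.31 and 2.83 after 1 day, and 1.51, 2.27 and 2.54 in control rats. Its differences were 0.01 and 0.07, with limma adjusted p of 0.977 and 0.854. With this probe set control rats 1, 2 and 3 were the lowest controls, at 2.12, 1.51 and 1.78, against 2.24 to 2.54 in control rats 4 to 10. Without control rats 1 to 3 the differences were -0.10 after 4 days and -0.05 after 1 day, which turned the sign. Over 27 rats the deviations of these probe sets correlated at r of 0.02, so they did not track each other within groups.

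Ccne1 and Ccne2 encode the E-type cyclins, which act after the D-type cyclins and are targets of E2F. Ccne1 (1373530_at), with a mean at percentile 31.7, had a lowest, median and highest intensity of 0.0250, 0.0471 and 0.0809 after 4 days, 0.0227, 0.0594 and 0.107 after 1 day, and 0.0443, 0.0700 and 0.113 in control rats. In the handled groups 4 of 10 rats after 4 days and 2 of 10 after 1 day were below all controls, and the rest overlapped. The differences were -0.53 after 4 days (interval -1.04 to -0.03) and -0.36 after 1 day (interval -0.87 to 0.14). The limma p was 0.0389 for 4 days and 0.154 for 1 day before adjustment, and 0.404 and 0.685 after it. Control rats 1, 2 and 3 had 0.0443, 0.0971 and 0.0762, against 0.0462 to 0.113 in control rats 4 to 10, and without them the differences were again -0.53 and -0.36.

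Ccne2 was measured by 2 probe sets, with means at percentile 52.9 (1374359_at) and 25.8 (1391681_at). Probe set 1374359_at had a lowest, median and highest intensity of 0.101, 0.140 and 0.170 after 4 days, 0.0946, 0.139 and 0.190 after 1 day, and 0.105, 0.129 and 0.174 in control rats, and its differences were 0.05 and 0.08. Probe set 1391681_at had 0.0290, 0.0431 and 0.0826 after 4 days, 0.0212, 0.0376 and 0.0822 after 1 day, and 0.0366, 0.0461 and 0.0777 in control rats, and its differences were -0.01 and -0.32. The groups overlapped with both, limma adjusted p was 0.686 to 0.989, and the deviations of the pair correlated at r of -0.15 over 27 rats.

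**Figure D4:**
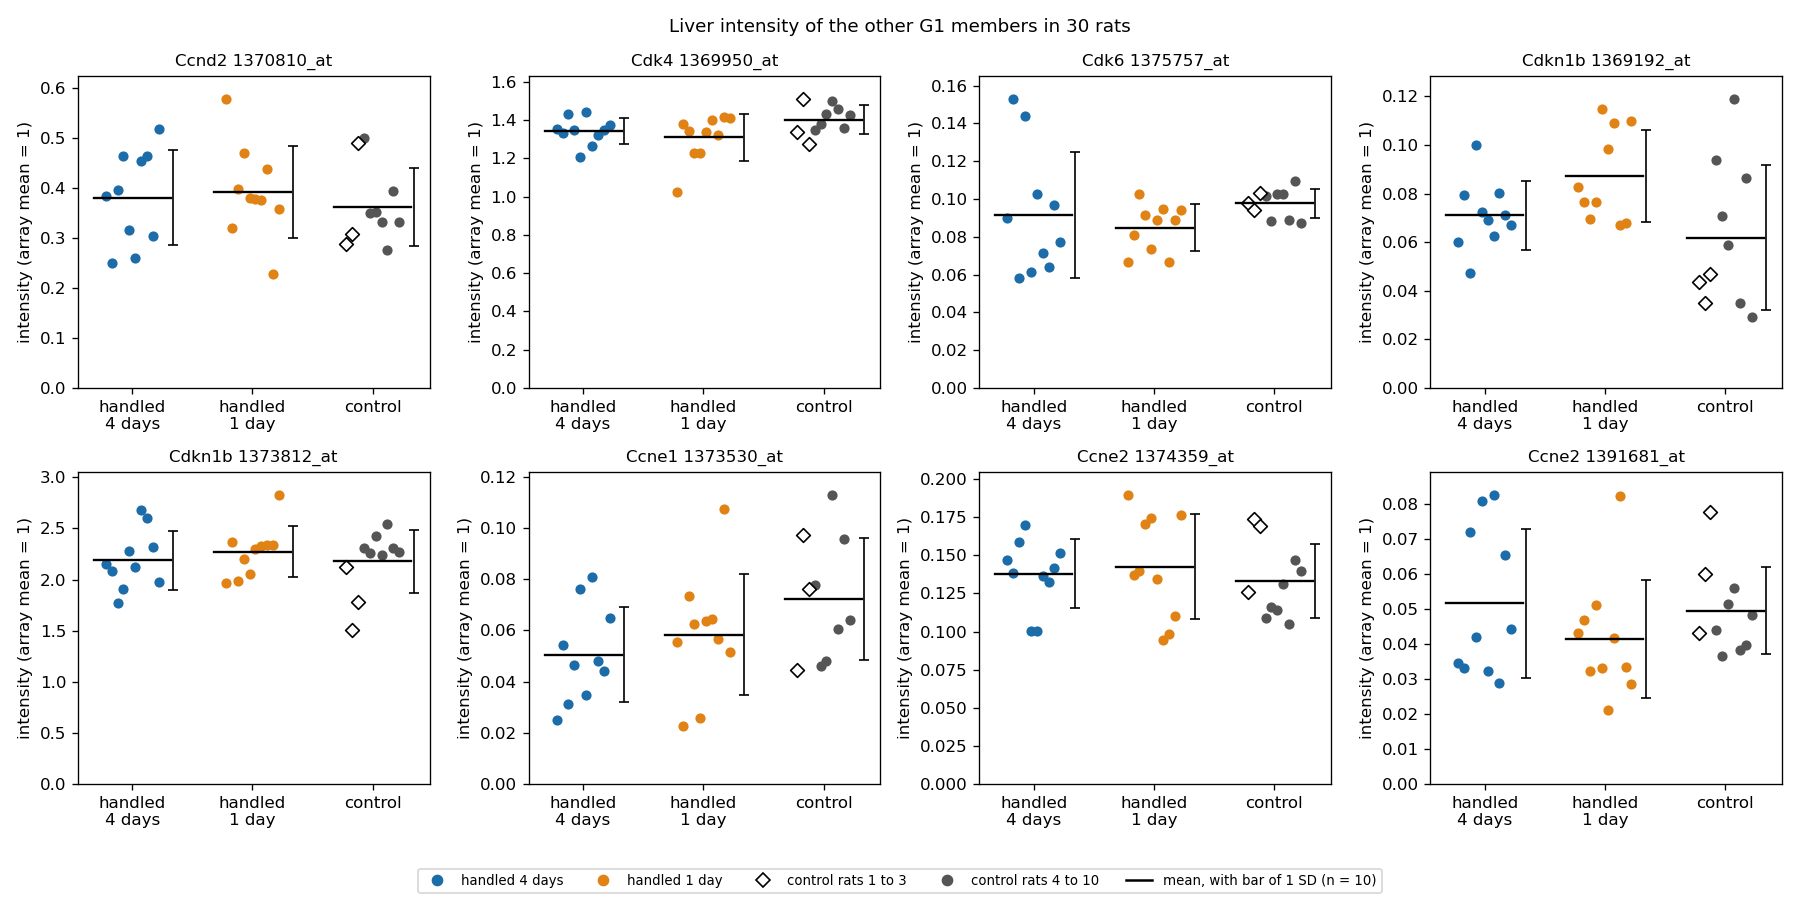
Intensity of the 8 remaining probe sets (Ccnd2, Cdk4, Cdk6, Cdkn1b, Ccne1 and Ccne2) in each of 30 livers, on linear axes that start at 0; points are rats, open diamonds are control rats 1 to 3, lines are group means and bars are 1 SD (n = 10). None passed the test, and in the Cdkn1b probe set 1373812_at control rats 1 to 3 are the 3 lowest controls.

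For 4 days against 1 day, the differences of the members other than Ccnd3 lay between -0.29 (Cdkn1b, 1369192_at) and 0.30 (Ccne2, 1391681_at). Cul1 differed by 0.03 with an interval of -0.07 to 0.12, and Cdk4 by 0.04 with an interval of -0.08 to 0.16. No member passed the limma test in this comparison, and the smallest adjusted p on the array was 0.815. At an unadjusted p under 0.05 there were 1551 probe sets, of which Ccnd3 was the only member.

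The wider G1 pathway was read from 50 further genes, of which 49 were measured (E2f3 had no probe set of its own). None rose and none fell in any of the comparisons by the limma test. The number with an unadjusted p under 0.05 was 6 after 4 days, 11 after 1 day and 3 for 4 days against 1 day. Over all probe sets the shares were 11.3%, 9.33% and 5%. The median log2 difference was -0.01, -0.04 and 0.03 in that order, beside medians of 0.00219, -0.00349 and 0.0051 over all probe sets. Over all probe sets 49.5% were lower after 4 days and 50.8% after 1 day. Of the 13 partners of the cullin ligase and other ubiquitin steps, 11 were lower after 4 days and 11 after 1 day, with medians of -0.02 and -0.06. The smallest p among them was that of Cks1b, the cofactor that lets Skp2 bind p27, with a difference of -0.43 after 1 day (standard error 0.11, adjusted p of 0.190) and -0.19 after 4 days (adjusted p of 0.542). Btrc, another substrate-binding subunit, had -0.26 after 1 day (adjusted p of 0.307) and -0.01 after 4 days (adjusted p of 0.972). Fzr1, an activator of the anaphase-promoting ligase, had -0.16 after 4 days and -0.24 after 1 day (adjusted p of 0.523 and 0.411).

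Among the 7 other inhibitors, Cdkn1a, which encodes p21, had the largest differences, 1.5 after 4 days and 1.42 after 1 day, each with a standard error of 0.59 and with adjusted p of 0.302 and 0.452. Without control rats 1 to 3, a setting chosen after the data were seen, 257 of 31042 probe sets (0.828%) passed after 4 days. Cdkn1a was the 1 gene of the 49 among them, and it rose. The rats left out were picked from these data, so the call of Cdkn1a is given as a description. Its difference after 4 days was then 2.23 (standard error 0.59, adjusted p of 0.0962), and after 1 day it was 2.15 (adjusted p of 0.173). Foxo1, a factor that insulin signalling keeps out of the nucleus and that can activate Cdkn1b, had 0.58 after 4 days (adjusted p of 0.131) and 0.27 after 1 day (adjusted p of 0.642). Cdc37, a chaperone partner that loads kinases such as Cdk4, had -0.18 after 4 days (adjusted p of 0.144) and -0.12 after 1 day (adjusted p of 0.487). Jun and Met, a growth-induced transcription factor and the receptor of hepatocyte growth factor, had -0.60 and -0.41 after 4 days (adjusted p of 0.352 and 0.401). Egfr, the receptor of epidermal growth factor, had 0.28 after 1 day (adjusted p of 0.524). Without control rats 1 to 3 the difference of Egfr was 0.06 (limma adjusted p of 0.943). Of the other inhibitors, Cdkn2d had -0.34 after 4 days (adjusted p of 0.332) and Cdkn3, a phosphatase that acts on cyclin-dependent kinases, had -0.77 after 1 day (adjusted p of 0.473). E2f5 and the pocket protein gene Rbl1 had -0.31 and -0.25 after 1 day (adjusted p of 0.417 and 0.456). The 12 pocket proteins and E2F factors with a value had medians of 0.05 after 4 days and -0.07 after 1 day, none of them called.

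Genes of DNA synthesis and mitosis, which act after G1, were mostly lower. Of 24 measured genes (Rrm2 had no probe set of its own), 22 were lower after 4 days and 22 after 1 day, with medians of -0.25 and -0.23. Over all probe sets 49.5% and 50.8% were lower. None of the decreases in the list passed the test across the array. Beside 11.3% and 9.33% of all probe sets, 7 and 6 of the 24 genes had an unadjusted p under 0.05. The 1 gene called was Mybl2, a factor of late G1 and S phase, which rose by 0.64 after 4 days (standard error 0.15, adjusted p of 0.0689), against 0.40 after 1 day (adjusted p of 0.411). Pcna, the clamp that holds DNA polymerase on its template, had -0.20 after 4 days and -0.21 after 1 day (adjusted p of 0.173 and 0.231). The helicase subunits Mcm6, after 4 days, and Mcm4, after 1 day, had -0.57 and -0.40 (adjusted p of 0.287 and 0.303). The summed intensity of the list was 4.10 to 6.34 after 4 days, 4.16 to 5.83 after 1 day, 6.0 to 6.96 in control rats 1 to 3 and 5.12 to 6.35 in control rats 4 to 10. Without control rats 1 to 3 the medians were -0.15 and -0.17, with 21 and 20 of 24 genes lower and none called (Mybl2 then had an adjusted p of 0.139 after 4 days). In that setting 50.8% and 52.2% of all probe sets were lower.

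The genes whose deviations from the group means were most like those of a member were sought over 27 rats, without control rats 1 to 3, and are given as a description. They have the highest r of all other genes with a probe set of 1 symbol, so they are high by selection. How high r would reach among unrelated genes was not tested. For Ccnd3 they were Xxylt1 (Pearson's r of 0.699), Pxk (0.677), Bid (0.640), Pklr (0.636) and Lrrc20 (0.634). For Cul1 they were Usp12 (0.665), Bcl2l1 (0.657), Mapre1 (0.656), Vhl (0.642) and Ppp4r3b (0.628). For Ccnd1 (1371643_at) they were Zfand6 (0.717), Nrg1 (0.707), Lect2 (0.666), Kif26b (0.657) and Mcm4 (0.653). Mcm4, a subunit of the helicase that opens DNA for replication, was the 1 gene of the DNA synthesis list among these 15. None of the 15 was called in either comparison with control, and their adjusted p was 0.180 or higher.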

How the data were processed

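Liver RNA of 30 rats was profiled with 1 array per rat. The authors deposited 1 table of intensities, scaled to a mean of 1 on each array. The methods name the Affymetrix operating software and ratios built in Rosetta Resolver, and the step that produced the deposited intensities is not given in the sources used here. Groups and replicate numbers were taken from the sample titles. Each sample is 1 rat, and the number of rats limits the precision.

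Log2 intensities were fitted in limma 3.58.1 (R 4.3.3) with the 3 groups in 1 model, lmFit and eBayes, two-sided, with Benjamini-Hochberg adjustment over 31042 probe sets after leaving out 57 Affymetrix control probe sets. The script was tested on simulated data. Symbols came from the platform annotation, in which 20826 probe sets carry 1 symbol, 436 several and 9780 none. All probe sets of the members are described. Other pathway genes, represented by their brightest probe set, are named where called against control or among the 3 smallest p of their list there with an unadjusted p under 0.05 (this limit was set after seeing values), and markers only as sums and calls. The members and lists were chosen with earlier results of these data known. Alternatives were an offset of 0.05, quantile normalisation, a stricter adjusted p (under 0.05), removal of the dimmest 40% of probe sets, a block for the replicate number, only the groups compared, the methods' t-test, the Gapdh ratio as a covariate, and leaving out each rat or control rats 1 to 3. The last was added for the gene lists after the data were seen.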

Additional observations from a re-analysis of the deposited data

Results flagged for a closer look

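Within groups of 10 rats, the highest and the lowest value of each of the 13 probe sets were compared with the rest of the group by Dixon's ratio, the gap to the nearest rat divided by the range of the group, both taken on log2 intensities. Of 39 groups examined, 2 exceeded the critical value, where chance gives about 1 in 20. With Cdk4, rat 1 of those handled for 1 day was the lowest at an intensity of 1.03, with the nearest rat at 1.23 and the highest at 1.42, a ratio of 0.549 on the log2 scale. With Cdkn1b (1373812_at), rat 10 of those handled for 1 day was the highest at 2.83, with the nearest rat at 2.37 and the lowest at 1.97, a ratio of 0.485 on the log2 scale. Neither probe set passed the test in any comparison.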

How the results depend on the processing

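For 1 day against control, 28 probe sets were called, of which 1 was a member. The counts were 1 at an adjusted p under 0.05, 45 with an offset of 0.05, 113 without the dimmest 40%, 2 with a replicate block, 1 with only the groups compared, 55 by the methods' t-test, 0 with the Gapdh ratio as a covariate and 102 without control rats 1 to 3. Leaving out single rats gave 1 to 44. Members called were 0 at an adjusted p under 0.05, with the replicate block, with only the groups compared and with the Gapdh covariate, and 0 to 1 without single rats. For 4 days against control, where 204 were called, the counts were 70 at an adjusted p under 0.05, 346 with the offset, 490 without the dimmest 40%, 85 with the replicate block, 27 with only the groups compared and 5 with the Gapdh covariate, and 86 to 307 without single rats. No member was called for 4 days in any of these settings. For 4 days against 1 day, 1 probe set was called with the Gapdh covariate and 0 otherwise, and no member. The methods' t-test at its own unadjusted threshold gave 233 probe sets for 4 days (0 members), 163 for 1 day (1 member) and 44 for 4 days against 1 day (1 member).

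Differences that turned sign were small. With the Gapdh covariate they were, for 1 day, Ccnd2 -0.017 and Ccne2 (1374359_at) -0.0201, and, for 4 days, Ccnd1 0.0379 (1371150_at) and 0.0365 (1383075_at), Ccnd2 -0.0865, Cdk6 0.0846 and Ccne2 (1374359_at) -0.0667. Without control rats 1 to 3 they were Cdkn1b (1373812_at) -0.0475 for 1 day and -0.105 for 4 days and Ccne2 (1391681_at) 0.106 for 4 days, which was 0.0115 with the offset. Without single rats, the ranges that crossed 0 were, for 4 days against control, -0.28 to 0.0328 (Ccnd1, 1371150_at), -0.223 to 0.0862 (Ccnd1, 1383075_at), -0.0456 to 0.0446 (Cdkn1b, 1373812_at) and -0.101 to 0.0665 (Ccne2, 1391681_at). For 4 days against 1 day they were -0.0292 to 0.183 and -0.108 to 0.0408 (Ccnd1, 1371150_at and 1371643_at), -0.129 to 0.019 (Ccnd2), -0.0403 to 0.115 (Cdk6) and -0.0894 to 0.022 (Ccne2, 1374359_at). The cause was not tested. Of all other single differences under alternatives that left out no single rat, 289 kept their direction and side of the threshold and 3 lost a call.

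Replicate numbers did not pair the rats: over 30 pairs with the same number the correlation of deviations from the group means was -0.04 to 0.12, and 1 pair exceeded 0.1. With the replicate block the adjusted p of Ccnd3 for 1 day was 0.145, with the same difference of -0.36. Leaving out the dimmest 40% of probe sets removed 3 of the 13 members, and array signal limits what can be read from these.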
